A study of Homo sapiens with 9 samples.

Results

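The protein disulfide isomerase family comprises enzymes and relatives of the endoplasmic reticulum (ER) built from thioredoxin-like folds. Its members here were taken by name: AGR2, AGR3, P4HB, PDIA4, PDIA5, PDIA6, TXNDC5, ERP44, ERP29 and TMX1, which are 10 of the 58735 genes of the count table. All 10 passed the filter on low counts, which kept 15555 genes. AGR2 and PDIA6 fell with both siRNAs against CDO1, P4HB and PDIA4 fell with 1 of them, and no member rose.

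The RNA came from VCaP, an established androgen-sensitive prostate cancer cell line, that received siCtrl, a control siRNA, or siCDO1A or siCDO1C, both directed at CDO1, the gene of cysteine dioxygenase. Each condition had 3 libraries, called biological replicates in the labels, so that 9 libraries were compared. The labels give the siCtrl cells the genotype WT and the others a CDO1 knockdown, and all groups were grown with 2 nM DHT, an androgen. Poly(A) RNA was sequenced to compare each siRNA with the control and to ask which transcripts follow a lower CDO1 level in 1 cell line.

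Proteins that are secreted or sit in membranes fold in the ER, where pairs of cysteines are joined by disulfide bonds. Protein disulfide isomerases form, break and rearrange these bonds through a CXXC motif, and the oxidase ERO1 returns them to the oxidised state. Some relatives lack that motif or hold on to clients instead of oxidising them, and several of the genes are induced when unfolded proteins build up in the ER. AGR2 is known for high levels in mucus-secreting epithelium and in hormone-dependent tumours, prostate cancer included, where androgen raises it.

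The RNA of CDO1 was lower in all 6 libraries of the siRNAs. Its mean was 13.96 ± 0.277 CPM (CPM, read counts scaled to the library total with TMM factors, mean ± SD, n = 3) in siCtrl cells. It was 2.501 ± 0.674 CPM in siCDO1A cells, a reduction of 82.1%, and 1.686 ± 0.974 CPM in siCDO1C cells, a reduction of 87.9%. The 2-sided exact permutation test gave p = 0.1 for each, the smallest value that 3 libraries against 3 allow. The total counts of the libraries lay between 12061295 and 16073698, so that 3 counts corresponded to 0.187 to 0.249 CPM. Of the markers of other cell types, KRT5, TP63, DCN, PECAM1, PTPRC, MUC2 and MUC5AC had at most 6 counts in any library and MUC5B at most 10. The neuroendocrine markers CHGA and SYP had 591 to 1434 counts, the mucous markers TFF1 and TFF3 35 to 223, and COL1A1, a stromal marker, 21 to 64. The luminal markers KLK2, KLK3, TMPRSS2, FOLH1, KRT8, KRT18 and EPCAM had at least 361 counts in every library, and so did ERG, the partner of TMPRSS2 in the gene fusion of this line.

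The stretches just upstream of the 4 genes that fell are shown because elements of the unfolded protein response lie close to the start in many ER genes. They are the 250 bases before the RefSeq transcription start (GRCh38.p14), read 5′ to 3′ on the strand of the gene, all on the minus strand. Capitals mark the single match to the ER stress response element, which is CCAAT and CCACG with any 9 bases between them and to which the factor ATF6 binds together with NF-Y.
PDIA6, chr2:10812786-10813035: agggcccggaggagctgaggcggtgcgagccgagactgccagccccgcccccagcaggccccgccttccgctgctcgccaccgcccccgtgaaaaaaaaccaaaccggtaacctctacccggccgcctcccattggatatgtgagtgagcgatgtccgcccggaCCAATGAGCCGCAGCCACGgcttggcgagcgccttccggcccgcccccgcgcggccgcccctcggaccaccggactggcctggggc
AGR2, chr7:16805000-16805249: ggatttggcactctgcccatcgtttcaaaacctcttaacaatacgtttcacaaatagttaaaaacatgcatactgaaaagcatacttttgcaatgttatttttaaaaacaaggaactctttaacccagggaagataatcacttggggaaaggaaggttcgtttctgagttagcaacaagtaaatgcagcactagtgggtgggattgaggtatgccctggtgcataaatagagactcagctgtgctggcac
P4HB, chr17:81860536-81860785: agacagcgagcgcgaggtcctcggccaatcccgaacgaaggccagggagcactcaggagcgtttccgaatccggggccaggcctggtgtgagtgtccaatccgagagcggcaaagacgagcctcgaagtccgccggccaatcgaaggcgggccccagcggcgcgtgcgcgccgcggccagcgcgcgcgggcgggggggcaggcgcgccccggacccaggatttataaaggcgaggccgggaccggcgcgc
PDIA4, chr7:149028491-149028740: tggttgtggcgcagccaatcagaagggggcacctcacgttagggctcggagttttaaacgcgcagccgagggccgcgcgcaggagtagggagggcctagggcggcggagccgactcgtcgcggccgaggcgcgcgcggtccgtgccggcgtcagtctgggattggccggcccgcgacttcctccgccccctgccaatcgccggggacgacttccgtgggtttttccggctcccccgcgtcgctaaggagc

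Both strands of these windows were searched for every promoter in the table. The full element lay in 26 of 35116 promoters (0.074%) and in 1 of the 13 entries that matched the 10 members, the PDIA6 window above, from 86 to 68 bases before the start. Its outer parts are common: CCAAT was in 32.0% and CCACG in 33.5% of all promoters. The P4HB window holds CCAAT at 3 places without CCACG, and the PDIA4 window holds CCAAT at 3 places and CCACG once, outside the spacing of the full element. The AGR2 window holds neither. The shorter XBP1-type element TGACGTGG was in 0.612% of promoters and, among the members, in 1 entry of TXNDC5. A second ER stress element, ATTGG and CCACG with 1 base between them, was in 0.0513% of promoters and in no member, and the androgen response element, AGAACA and TGTTCT with 3 bases between them, in 0.00285% and in no member. PDIA4, PDIA6 and TXNDC5 each have 2 entries in the promoter table, and these letters were searched only in the windows described. All 4 RefSeq starts used here lie inside the genes as the count table gives them. For AGR2 the table gives 16791811 to 16833433 of chromosome 7 and for PDIA6 10783391 to 10837977 of chromosome 2, so that the windows of both lie well inside the gene. The second PDIA6 entry, chr2:10832486-10832735, is nearer to the start in the table and does not hold the element.

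Per length, the members spanned a wide range in siCtrl cells. P4HB, the classical isomerase and a subunit of collagen prolyl 4-hydroxylase, had 201.5 ± 1.69 FPKM (CPM per kilobase of gene length, SD, n = 3), more than 99.1% of the genes tested. PDIA4, which carries 3 active thioredoxin domains, followed with 137.3 ± 1.82 FPKM, and AGR2 with 104.4 ± 5.01 FPKM. PDIA6 had 83.5 ± 2.35 FPKM and ERP29, a relative without a CXXC motif, 69.7 ± 2.65 FPKM. The next group was about an order lower, with 16.2 ± 0.609 FPKM for the membrane-anchored TMX1, 13.96 ± 0.942 FPKM for ERP44 and 11.98 ± 0.503 FPKM for PDIA5. AGR3, at 1.37 ± 0.207 FPKM, and TXNDC5, at 0.757 ± 0.29 FPKM, were the lowest. The ranges of neighbours in this order did not overlap in the 3 siCtrl libraries. AGR2 and AGR3 are neighbouring paralogs on chromosome 7, 25971 bases apart on the minus strand, and the FPKM of AGR2 was 76.1 times that of AGR3.

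**Figure D1:**
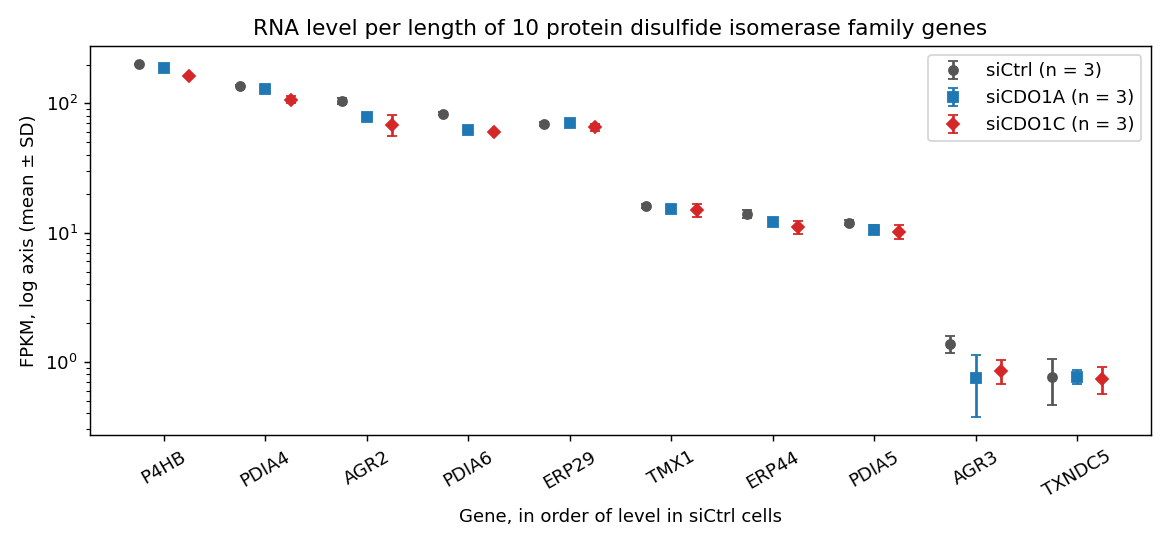
FPKM (log axis, mean ± SD, n = 3 libraries per siRNA) of the 10 family genes, ordered by their level in siCtrl cells. P4HB leads at 201.5 FPKM in siCtrl cells and AGR3 and TXNDC5 lie at 1.37 and 0.757 FPKM; the bars of AGR3 and TXNDC5 are wide because few reads were counted.

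In siCDO1A cells, 2 of the 10 members, AGR2 and PDIA6, passed an adjusted p of 0.05 (edgeR quasi-likelihood test, Benjamini-Hochberg over 15555 genes), both lower, where 14.9% of all genes tested passed and 7.48% passed as lower. In siCDO1C cells 4 members passed, AGR2, PDIA6, P4HB and PDIA4, all lower, where 4.77% of all genes passed and 2.5% passed as lower. No member passed in the direct comparison of siCDO1C with siCDO1A, where 0.444% of all genes did. That comparison had 2 members at an unadjusted p under 0.05 with edgeR, and DESeq2 called 1, PDIA4, with 0.889% of all genes. Both comparisons with siCtrl use the same 3 siCtrl libraries, and 1.72% of all genes passed as lower in both. Log2 fold changes were below 0 for 8 of 10 members with siCDO1A and for all 10 with siCDO1C, against 48.1% and 50% of all genes. The median log2 fold change of the members was -0.14 with siCDO1A and -0.33 with siCDO1C, against 0.01 and 0.00 for all genes tested.

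**Figure D2:**
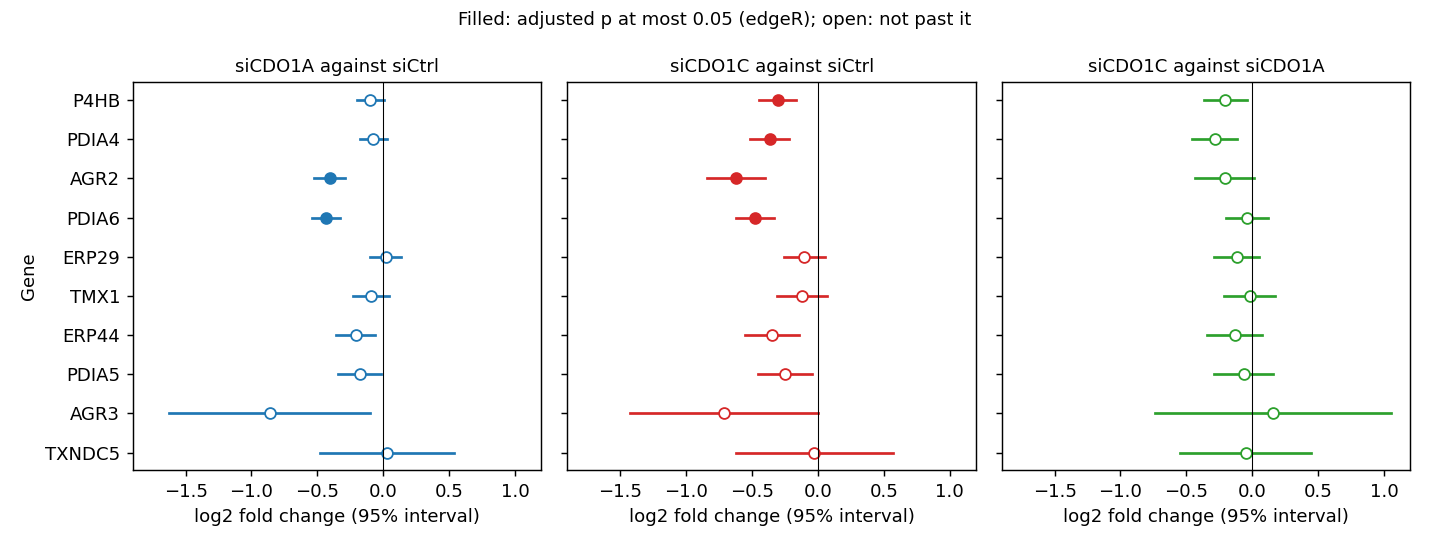
Log2 fold change of each member with its 95% interval in the 3 comparisons; filled points passed an adjusted p of 0.05 (edgeR) and open points did not. AGR2 and PDIA6 are filled and below 0 with each siRNA, P4HB and PDIA4 only in the siCDO1C panel, and no point is filled between the siRNAs.

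AGR2, which binds mucins and other clients and has a single-cysteine active site, was 283.2, 296.1 and 311.6 CPM in the siCtrl libraries (replicates 1 to 3). It was 236.7, 218.5 and 217.5 CPM in siCDO1A libraries and 167.8, 235.3 and 180.8 CPM in siCDO1C libraries. No siRNA library reached the lowest siCtrl value, and siCDO1C replicate 2 lay among the siCDO1A values. With siCDO1A, AGR2 fell by 24.5% (log2 fold change -0.41, SE 0.06, adjusted p = 3.64e-05, edgeR). With siCDO1C it fell by 34.8% (-0.62, SE 0.10, adjusted p = 0.00318), and its coefficient of variation was 18.4% against 4.80% in siCtrl cells. Within batches, the number the labels give to libraries with the same replicate number, the log2 ratio lay between -0.52 and -0.26 for siCDO1A and between -0.79 and -0.33 for siCDO1C, with 1 library per group in each batch. The difference between the siRNAs was -0.21 on the log2 scale, with a 95% interval from -0.43 to 0.01 (adjusted p = 0.688). Without siCDO1C replicate 2 that difference was -0.37 and its adjusted p 0.00297, so that 1 library decided this call.

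PDIA6, an isomerase that also acts on the ER stress sensors, was 331.6, 350.3 and 345.2 CPM in siCtrl libraries, 251.5, 264.0 and 245.0 CPM with siCDO1A and 241.2, 250.9 and 249.2 CPM with siCDO1C. The siRNA groups overlapped each other and both lay below siCtrl. PDIA6 fell by 26.0% with siCDO1A (log2 fold change -0.43, SE 0.05, adjusted p = 8.29e-06) and fell by 28.2% with siCDO1C (-0.48, SE 0.07, adjusted p = 0.000812). The difference between the siRNAs was -0.04 with a 95% interval from -0.20 to 0.12. The log2 ratios within batches were -0.50 to -0.40 for siCDO1A and -0.48 to -0.46 for siCDO1C, and PDIA6 varied by 2.09% to 3.80% (coefficient of variation) within groups. Opposite PDIA6 lies ATP6V1C2, which overlaps it on the other strand and had 26 to 53 counts per library.

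P4HB was 1066, 1061 and 1078 CPM in siCtrl libraries, 1035, 1016 and 945.1 CPM with siCDO1A and 872.8, 884.9 and 849.5 CPM with siCDO1C. The 3 groups did not overlap, with siCtrl highest and siCDO1C lowest. P4HB fell by 19.1% with siCDO1C (-0.31, SE 0.07, adjusted p = 0.0138). With siCDO1A its log2 fold change was -0.10 (95% interval -0.20 to 0.00, adjusted p = 0.197), and the difference between the siRNAs was -0.21 (-0.37 to -0.04, adjusted p = 0.47). The ratio to siCtrl within batches was -0.34 to -0.26 for siCDO1C. The call with siCDO1C did not pass when siCtrl replicate 1, 2 or 3 or siCDO1C replicate 1 was left out (adjusted p = 0.106, 0.101, 0.0888 and 0.0689), with log2 fold changes between -0.31 and -0.29 over all libraries left out.

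PDIA4 was 452.5, 454.3 and 443.2 CPM in siCtrl libraries. It was 444.6, 421.9 and 414.6 CPM with siCDO1A, where replicate 1 lay inside the siCtrl range, and 328.7, 365.7 and 359.4 CPM with siCDO1C, below all other libraries. It fell by 22.3% with siCDO1C (-0.36, SE 0.07, adjusted p = 0.00651). With siCDO1A its log2 fold change was -0.08 (95% interval -0.18 to 0.03, adjusted p = 0.345). The difference between the siRNAs was -0.29 (-0.45 to -0.12, adjusted p = 0.189 with edgeR, and 0.0492 with DESeq2). Within batches the ratio to siCtrl was -0.46 to -0.30 for siCDO1C and -0.11 to -0.03 for siCDO1A. The siCDO1C call did not pass without siCtrl replicate 1 (adjusted p = 0.0702), siCtrl replicate 2 (0.0669) or siCDO1C replicate 1 (0.0573), and the difference between the siRNAs passed without siCDO1C replicate 2 (0.00686).

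**Figure D3:**
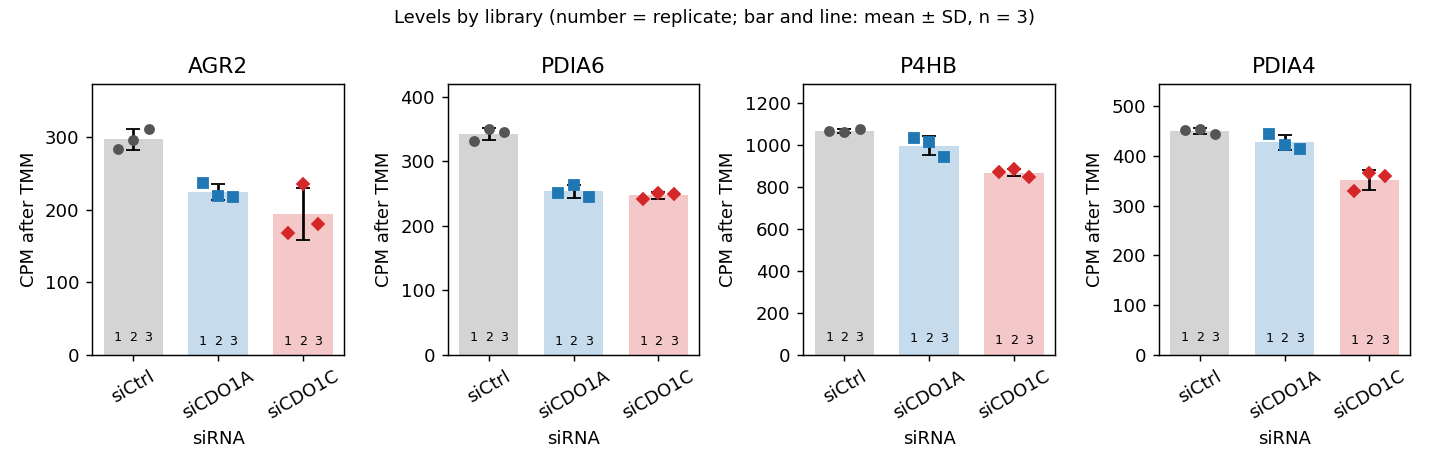
CPM after TMM scaling of AGR2, PDIA6, P4HB and PDIA4 by siRNA, with 1 point per library, the replicate number at the foot, and bars and lines for the mean ± SD (n = 3). In each panel all siCDO1C points lie below the siCtrl points, and siCDO1C replicate 2 of AGR2, at 235.3 CPM, stands above the other siCDO1C libraries.

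ERP44, which retrieves clients and ER proteins from later compartments, came next to the threshold. Its levels were 69.9, 70.8 and 62.5 CPM in siCtrl libraries, 57.6, 56.8 and 61.2 CPM with siCDO1A and 46.7, 59.6 and 54.3 CPM with siCDO1C, so that both siRNA groups lay below siCtrl without overlap. Its log2 fold change was -0.21 with siCDO1A (SE 0.07, adjusted p = 0.0554) and -0.35 with siCDO1C (SE 0.10, adjusted p = 0.0504). With the replicate number as a block, the siCDO1C value passed at an adjusted p of 0.0466, with 4.08% of all genes passing. It also passed with DESeq2 (0.0389), 1 edgeR fit of all 9 libraries (0.0272), no filter (0.00818) and without siCDO1C replicate 2 (0.000285). In the other alternatives it did not pass, with values up to 0.228. Within batches the ratio was -0.58 to -0.20 with siCDO1C and -0.32 to -0.03 with siCDO1A.

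PDIA5 and TMX1 gave small differences that did not pass. PDIA5, an isomerase known to act on the stress sensor ATF6, was 48.7, 46.1 and 50.1 CPM in siCtrl libraries, 39.3, 46.4 and 42.1 CPM with siCDO1A and 35.4, 42.7 and 44.6 CPM with siCDO1C. Only the siCDO1A library of replicate 2 reached the siCtrl range. Its log2 fold change was -0.18 (adjusted p = 0.141) and -0.25 (adjusted p = 0.167). SEC22A overlaps it on the same strand, with 105 to 182 counts per library. TMX1, an isomerase anchored in the ER membrane, was 75.8, 71.2 and 71.0 CPM in siCtrl libraries, 67.3, 66.7 and 69.9 CPM with siCDO1A and 62.4, 76.2 and 63.2 CPM with siCDO1C. Here siCDO1C replicate 2 was the highest of all 9 libraries and the other siCDO1C libraries were the lowest. Its log2 fold change was -0.10 (adjusted p = 0.374) and -0.12 (adjusted p = 0.522).

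ERP29, a helper of secretion and membrane protein transport, stayed closest to its control level among the abundant members. It was 205.6, 220.3 and 219.1 CPM in siCtrl libraries, 218.7, 228.9 and 206.1 CPM with siCDO1A and 200.5, 213.3 and 190.6 CPM with siCDO1C, with overlap in both comparisons. The 95% interval of its log2 fold change was -0.10 to 0.14 with siCDO1A and -0.25 to 0.05 with siCDO1C, so that a change in ERP29 of the size fitted for PDIA6 lay outside both.

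The least abundant members, AGR3 and TXNDC5, rested on few reads. AGR3, the close relative of AGR2 known from ciliated epithelium, had 7 to 30 counts per library. It was 1.40, 1.51 and 1.86 CPM in siCtrl libraries, 0.573, 1.37 and 0.660 CPM with siCDO1A and 0.752, 1.14 and 1.07 CPM with siCDO1C. All siRNA libraries lay below siCtrl, with log2 fold changes of -0.86 (SE 0.37, adjusted p = 0.124) and -0.71 (SE 0.33, adjusted p = 0.27). Without siCDO1A replicate 2 the siCDO1A value was -1.36 and passed (adjusted p = 0.0477). TXNDC5, an isomerase with 3 thioredoxin domains, had 28 to 59 counts per library and overlapped between all groups, with log2 fold changes of 0.03 (95% interval -0.48 to 0.54) and -0.03 (-0.62 to 0.57). The read-through gene BLOC1S5-TXNDC5 covers the same bases on the same strand and had 0 counts in all libraries. How reads that fit both genes were counted is not given in the sources used here, so the level of TXNDC5 is uncertain.

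**Figure D4:**
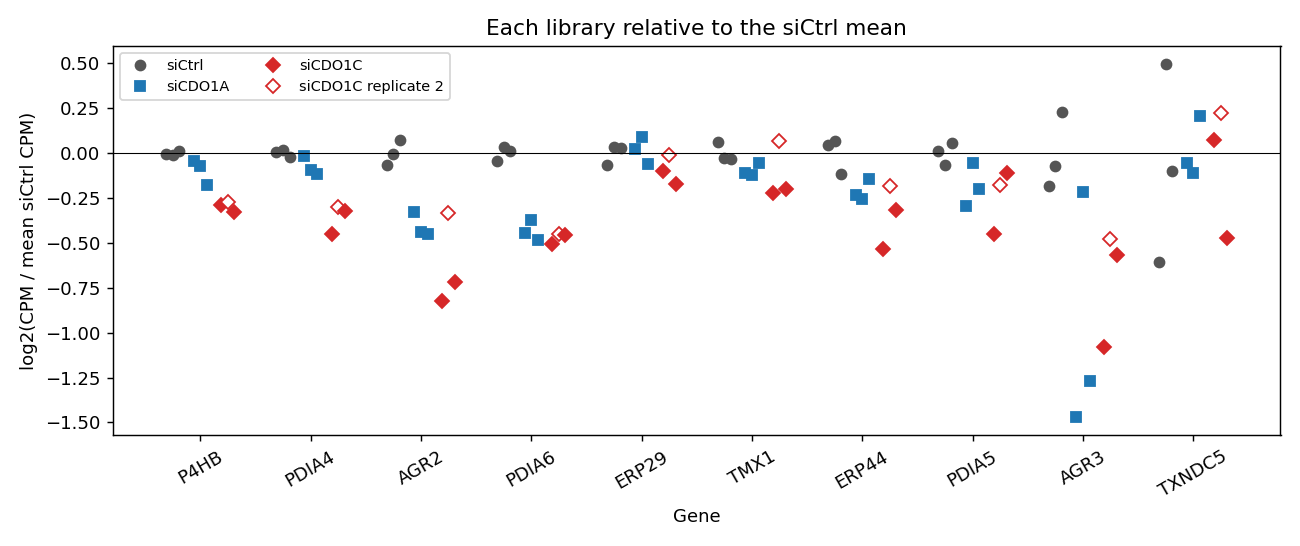
Log2 of each library's CPM over the mean siCtrl CPM for the 10 members, in order of their siCtrl level, with siCDO1C replicate 2 as an open symbol. The open symbol is the highest siCDO1C point in 9 of 10 members, and the share of all genes with this library highest is not given. AGR3 and TXNDC5 scatter most in siCtrl cells (coefficients of variation 15.1% and 38.2%).

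Among siCDO1C libraries, replicate 2 was the highest in 9 of 10 members and also for CDO1 itself, at 2.81 CPM against 1.09 and 1.15 CPM. The share of all genes for which this library was the highest is not given here. A link between its CDO1 level and the members was not tested. Without replicate 2, 7 members passed in siCDO1C cells, PDIA5 (adjusted p = 0.0299), ERP44 (0.000285) and TMX1 (0.0357) being added. The share of all genes that passed was then 13.3%, against 4.77% with all libraries. In the comparison of the siRNAs, AGR2 and PDIA4 then passed, where 2.87% of all genes did.

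Summed over the 10 members, the RNA was 2566 ± 26.3 CPM in siCtrl cells, 2295 ± 78.4 CPM in siCDO1A cells and 2029 ± 91.8 CPM in siCDO1C cells (SD, n = 3). P4HB made up 41.6% of the sum in siCtrl cells, 43.5% with siCDO1A and 42.9% with siCDO1C. The libraries of the 3 groups did not overlap in this sum, which is given as a description because the most abundant members set it. In bulk RNA, fewer transcripts in every cell and a smaller share of cells with many transcripts cannot be told apart. In 6 members all siCDO1A libraries lay below all siCtrl libraries (15.4% of all genes tested did), and in 7 members all siCDO1C libraries did (12% of all genes).

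The genes whose 9 libraries lay nearest to AGR2, by the root mean square difference of log2 CPM centred on the siCtrl mean, were ANXA5 (0.0644), TMBIM1 (0.0701) and ZSCAN12 (0.108). For PDIA6 they were PSD4 (0.0701), RRBP1 (0.0726) and MTMR9 (0.0807), of 15555 genes compared.

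Of the other genes of the family, 14 were listed and 11 tested. With siCDO1A, 2 of them fell and 2 rose, where 7.48% of all genes fell and 7.37% rose. With siCDO1C, 2 fell and 1 rose, where 2.5% of all genes fell and 2.27% rose. DNAJC10 (ERdj5), a reductase that works with the chaperone HSPA5, fell by 0.21 on the log2 scale with siCDO1A (adjusted p = 0.0162, and 0.0882 with the replicate block) and by 0.36 with siCDO1C (0.00798). TXNDC16 rose with both, by 0.36 (adjusted p = 0.00853) and 0.35 (0.04). PDIA2, the pancreatic isomerase, rose with siCDO1A from 6.52 to 12.5 CPM (0.93, adjusted p = 0.00146), and its siCDO1C value was 0.36 (adjusted p = 0.344). TXNDC11 fell with siCDO1A (-0.23, adjusted p = 0.0401, and 0.103 with the block) and ERP27 with siCDO1C (-0.58, adjusted p = 0.0404). The abundant PDIA3, which folds glycoproteins bound to calnexin and calreticulin, had log2 fold changes of -0.14 (adjusted p = 0.0541) and -0.29 (0.0627), neither past the threshold. With DESeq2 both passed (adjusted p = 0.0205 and 0.0311), where 15.2% and 5.81% of all genes did. Over all alternatives the adjusted p ranged from 0.0205 to 0.312 with siCDO1A and from 4.82e-07 to 0.277 with siCDO1C.

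Of 9 genes that oxidise the isomerases or other ER thiols, 1 passed with each siRNA, where 14.9% and 4.77% of all genes did. It was QSOX1, a sulfhydryl oxidase, with log2 fold changes of -0.33 (siCDO1A, adjusted p = 0.0126) and -0.52 (siCDO1C, 0.00471). The median log2 fold change of these 9 genes was -0.10 and -0.09.

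Of the partners of the isomerases and the ER chaperones, 19 of 20 listed genes were tested, and 6 fell with siCDO1A and 9 with siCDO1C, where 7.48% and 2.5% of all genes fell. None of them rose, and the medians were -0.16 and -0.37. CANX, CALR, HSPA5, DNAJB11 and DNAJC3 fell with both. CALR, a lectin chaperone that works with PDIA3, fell by 13.9% and fell by 29.1% (adjusted p = 0.00475 and 0.0007). HSPA5 (BiP), the main HSP70 of the ER, fell by 14.7% and fell by 31.9% (adjusted p = 0.00173 and 0.000664). DNAJC3, a co-chaperone of HSPA5, fell by 30.9% and 31.0% (adjusted p = 4.51e-05 and 0.00105). The siCDO1A values of CANX (-0.17, adjusted p = 0.0335) and DNAJB11 (-0.22, 0.0482) did not pass with the replicate block (0.118 and 0.148). HSP90B1, MANF, CRELD2 and PPIB fell with siCDO1C, by 0.47, 0.58, 0.46 and 0.37 on the log2 scale, and SELENOF fell with siCDO1A, by 0.25 (0.0521 with the block).

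Of 10 sensors and transcription factors of ER stress, 6 fell with each siRNA, where 7.48% (siCDO1A) and 2.5% (siCDO1C) of all genes fell. None of them rose, and the medians were -0.20 and -0.37. CREB3L1 and CREB3L2, membrane-bound factors of secretory cells, had the lowest values with siCDO1C, -1.19 and -1.11 (adjusted p = 0.000284 and 0.000435), and fell with siCDO1A by 0.65 and 0.44. XBP1, a main activator of ER chaperone genes, fell by 12.6% and 22.2% (adjusted p = 0.016 and 0.0208), and ATF4 by 11.8% and 23.0% (0.0275 and 0.0136). With the block the siCDO1A values of XBP1 and ATF4 did not pass (0.0925 and 0.122). EIF2AK3 (PERK), a stress sensor kinase, fell by 0.31 and 0.39 (adjusted p = 0.0148 and 0.0182). ERN1 (IRE1), the sensor that splices XBP1, fell with siCDO1A by 0.69 (adjusted p = 5.02e-06), and its siCDO1C value was -0.35 (0.0521). DDIT3 (CHOP), a factor of the stress response, fell with siCDO1C by 0.88 (adjusted p = 0.00203). Its siCDO1A value was -0.20 (0.24).

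Over the 4 related lists, 15 of 49 tested genes fell and 2 rose with siCDO1A, and 18 fell and 1 rose with siCDO1C, where 7.48% and 2.5% of all genes fell and 7.37% and 2.27% rose. With the replicate block 10 passed with siCDO1A, and 8.73% of all genes did. Each of the 13 genes that passed with both had libraries of each siRNA entirely beyond siCtrl, except CANX with siCDO1A, whose groups overlapped. These genes were picked by their adjusted p in the same libraries, so this describes the calls and adds no support to them. Without siCDO1C replicate 2, 32 passed with siCDO1C, where the share of all genes that passed also rose, from 4.77% to 13.3%. With each of the 6 libraries left out in turn, 8 of the 17 calls with siCDO1A passed every time, those of PDIA2, TXNDC16, CALR, HSPA5, DNAJC3, ERN1, CREB3L1 and CREB3L2. With siCDO1C 9 of 19 did, those of QSOX1, CALR, HSPA5, HSP90B1, DNAJC3, MANF, DDIT3, CREB3L1 and CREB3L2. The other calls were each lost without 1 or more libraries, controls included, with adjusted p-values of at most 0.192 and 0.191.

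**Figure D5:**
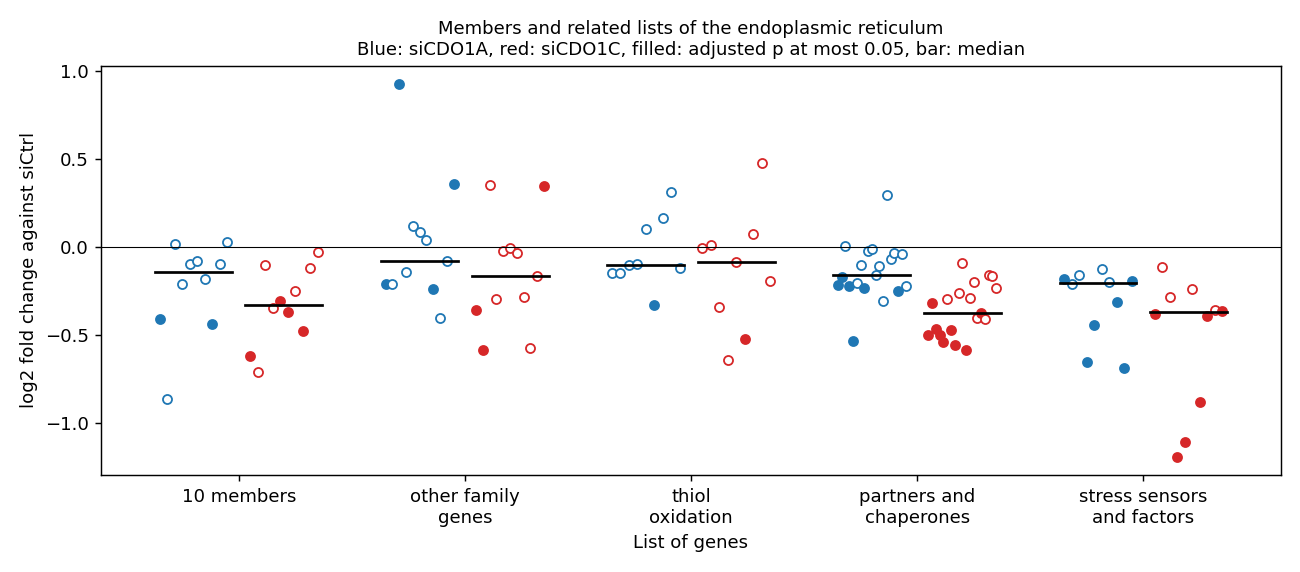
Log2 fold change against siCtrl of the 10 members and of the tested genes in 4 related lists (1 point per gene, blue siCDO1A, red siCDO1C, filled where the adjusted p was at most 0.05, bar at the median). Chaperones and stress factors have filled points only below 0, and the siCDO1C medians of the members, the partners and chaperones and the stress sensors and factors are -0.33, -0.37 and -0.37.

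Several luminal markers, some of them known to respond to androgen, moved as well. KLK3 fell with both siRNAs (-0.38, adjusted p = 0.00741, and -0.43, 0.0243) and FOLH1 did too (-0.28, 0.0012, and -0.27, 0.03, the latter 0.0729 with the block). KLK2 rose with siCDO1A (0.34, adjusted p = 5.62e-05). KRT8 fell with siCDO1A (-0.19, 0.0347, and 0.121 with the block). Of the mucous markers, SPDEF was at 293.7 ± 13.6 CPM in siCtrl cells, 271.9 ± 23.5 with siCDO1A and 266.1 ± 20.7 with siCDO1C, and TFF1, at 5.92 CPM in siCtrl cells, fell with siCDO1A to 3.47 CPM (adjusted p = 0.0121). With a library left out, the calls of KLK2 and FOLH1 with siCDO1A passed every time. Those of KLK3 with both siRNAs, KRT8 with siCDO1A and FOLH1 with siCDO1C did not (adjusted p up to 0.172). Such values are not reported here for TFF1. The part of these markers in the levels of AGR2 was not tested.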

How the data were processed

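RNA of VCaP cells (siCtrl, siCDO1A and siCDO1C, 3 libraries each) was compared. Libraries of poly(A) RNA kept the strand (dUTP) and were sequenced paired-end. The submitters' processing notes name CASAVA, HISAT2 2.0.5 and hg38, and the paper names featureCounts. Counts per gene were deposited by the authors without normalization. How strand and multiple mapping were set is not given in the sources used here. In the count table, 3 further columns match no sample and were not used.

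Genes were kept by filterByExpr (minimum count 10, 9 libraries) and each comparison was fitted to its 6 libraries with TMM and the robust quasi-likelihood test of edgeR 4.0.16 (R 4.3.3). An adjusted p of at most 0.05 was called. SEs are |log2 fold change| divided by the square root of F. FPKM are CPM over the deposited gene length in kilobases. Promoter sequences are from RefSeq (GRCh38.p14), with an entry for each of the 10 members and 13 in all. Alternatives were DESeq2 1.42.0, 1 fit of all 9 libraries, RLE, no filter, at least 10 counts in every library, the replicate block, an adjusted p of 0.01 and leaving out each library. The code was tested on simulated data. The limit for recovering changes of 1 log2 unit was lowered after siCDO1C against siCtrl fell short of it. The direction and size of the fitted changes were right.

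The members and lists were chosen with earlier results of these data known. Genes named beyond the 10 members and CDO1 are those of the related lists past the threshold with both siRNAs, with at most 4 more per list and comparison, and the 3 nearest patterns of each member called with both. The markers of cell types were also listed, and those named with a change were chosen after their values were seen. Some of the markers are not reported here.

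The labels give a batch number equal to the replicate number, by which libraries can be paired. The main fits did not use this pairing, whereas the replicate block and the ratios within batches did. Those ratios therefore hold only as far as the numbering is a true pairing. Deviations from the group means of same-numbered libraries correlated over 11332 genes, which are not independent replicates, at -0.202, -0.0896 and -0.376 (siCDO1A and siCtrl, batches 1 to 3), 0.0523, -0.00773 and -0.277 (siCDO1C and siCtrl) and -0.134, 0.127 and 0.378 (siCDO1C and siCDO1A). Intervals cover the spread between libraries, and the floor of 3 counts covers counting error only.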

Additional observations from a re-analysis of the deposited data

Results flagged for a closer look

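Of the members and the 4 related lists, 2 genes differed between the siRNAs in the direct comparison of siCDO1C with siCDO1A (edgeR). Of all genes tested, 0.444% did. DDIT3 was 20.2, 21.3 and 16.96 CPM in siCDO1A libraries and 10.3, 15.1 and 11.1 CPM in siCDO1C libraries, a log2 fold change of -0.68 (adjusted p = 0.0496). CREB3L2 was 65.8, 67.0 and 75.9 CPM and 42.8, 35.1 and 55.0 CPM, a log2 fold change of -0.66 (adjusted p = 0.0393). Both lay lower in all siCDO1C libraries. They were picked by their adjusted p in the same libraries, so this describes the calls and adds no support to them. The adjusted p of DDIT3 ranged from 0.000472 to 0.396 and that of CREB3L2 from 1.49e-07 to 0.276 over the alternatives, and neither passed when siCDO1A replicate 1, 2 or 3 or siCDO1C replicate 1 was left out. DDIT3 also did not pass without siCDO1C replicate 3 (0.165), with RLE size factors (0.0526) or with at least 10 counts in every library (0.0595).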

How the results depend on the processing

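AGR2 and PDIA6 passed with both siRNAs in every alternative run, DESeq2 and each library left out included. Over all alternatives of the members' log2 fold changes, 346 kept direction and side of the threshold, 14 newly passed, 8 no longer passed and 15 changed sign. The members called were 2 to 7 with siCDO1C and 0 to 2 between the siRNAs when a library was left out, and DESeq2 and 1 fit of all 9 libraries each called 1 between the siRNAs. Sign changes came only with libraries left out: TXNDC5 ranged from -0.19 to 0.34 (siCDO1A), -0.24 to 0.29 (siCDO1C) and -0.19 to 0.12 (between the siRNAs), ERP29 from -0.018 to 0.058 (siCDO1A), and, between the siRNAs, AGR3 from -0.045 to 0.65, PDIA5 from -0.13 to 0.029 and TMX1 from -0.12 to 0.030.

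In the related lists with siCDO1A, 10 genes passed with 1 fit of all 9 libraries (8.8% of all genes did) and 10 with the replicate block (8.73%). At an adjusted p of 0.01, 9 passed, and 8 to 23 passed with a library left out (8.31% to 22.2% of all genes). With siCDO1C, 11 passed at 0.01 and 10 to 32 with a library left out (1.69% to 13.3% of all genes). Shares of all genes at 0.01 are not given here. Between the siRNAs, 7 passed with DESeq2 (0.889% of all genes did), 6 with 1 fit of all 9 libraries (0.823%) and 1 with RLE (0.418%). Without the filter 6 passed (0.514%), with at least 10 counts in every library 1 (0.465%) and with the block 6 (0.778%). At 0.01, 0 passed, and 0 to 16 passed with a library left out (0.116% to 2.87% of all genes). The block added HSPA5, HSP90B1, MANF and CRELD2 between the siRNAs (adjusted p = 0.0396, 0.0156, 0.00672 and 0.0245). Beside the calls named in the report, the block changed no other call of the members, of CDO1 against siCtrl, or of the genes that passed in the related lists and among the luminal markers.

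All genes called numbered 2310, 742 and 69 (siCDO1A, siCDO1C, between the siRNAs). They numbered 1369 with 1 fit of all 9 libraries and 1358 with the block for siCDO1A, and 104 with DESeq2, 128 with 1 fit, 153 without the filter and 121 with the block between the siRNAs. With a library left out they ranged from 1292 to 3454, 263 to 2068 and 18 to 447. AGR3 had no value with at least 10 counts in every library, and DESeq2 gave no adjusted p for AGR3 or, between the siRNAs, TXNDC5. At 7 to 59 counts per library, small changes in AGR3 and TXNDC5 were not detectable. The cause of these shifts was not tested.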
